A study of Homo sapiens with 6 samples.

Results

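The aldo-keto reductases AKR1A1, AKR1B1, AKR1B10, AKR1C1, AKR1C2 and AKR1C3 and the carbonyl reductases CBR1 and CBR3 were followed in MDA-MB-231 cells treated with a plant extract. These 8 genes were taken as listed, by gene symbol, out of 60651 gene rows. MDA-MB-231 is a long-established line of human breast cancer cells of the triple-negative class, and the labels give its genotype as WT. For 24 h they were given DMSO (solvent alone), 75 µg/ml AF-EAE or 150 µg/ml AF-EAE, and each of these 3 groups has 2 libraries. AF-EAE was extracted with ethyl acetate from the plant Antenoron filiforme, and the labels do not name its constituents. All groups are the same 1 cell line, and the labels give no second line. The series title names proliferation and the SKP2/P21 axis as the subject of the study. The question asked of the reductases is how their transcript levels differed at each dose from DMSO and between the doses.

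Both enzyme families reduce aldehydes and ketones to alcohols with NADPH as the hydride donor, and so act on steroids, prostaglandins, sugars, lipid aldehydes, quinones and drugs. The aldo-keto reductases fold as a barrel, while the carbonyl reductases belong to the short-chain dehydrogenases and carry another fold. In human cells AKR1B10, AKR1C1, AKR1C2 and AKR1C3 are known as target genes of NFE2L2 (NRF2), a transcription factor that is held low by KEAP1 and is activated by electrophiles. In breast tissue AKR1C1 is known for inactivating progesterone, and AKR1C3 for forming potent androgens and estrogens.

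The values are reads per gene. Each library held 15621103 to 17113722 gene counts, and 3 counts amount to between 0.175 and 0.192 CPM (counts scaled to a common library total). Levels are given as CPM scaled by edgeR's TMM method, with the SD of the 2 libraries. Differences are log2 fold changes from edgeR's quasi-likelihood F-test over 15589 genes, with p-values adjusted by the Benjamini-Hochberg (BH) method over all of them and a threshold of 0.05. The labels call the 2 libraries of a group biological replicates but do not say whether they were grown as separate cultures. The p-values measure only how far these libraries spread. Both comparisons with DMSO use the same 2 DMSO libraries and are not independent of each other. With total counts in place of TMM the median over all tested genes moved from 0.01 to 0.14 at 75 µg/ml, from 0.03 to 0.22 at 150 µg/ml and from 0.0 to 0.06 between the doses, as log2 fold changes. The share of calls that were higher moved with it, from 49.7% to 71.3%, from 50.1% to 70.3% and from 43.2% to 62.1%. All fold changes below are on the TMM scale.

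Markers of the line were present. KRT8 ran from 283 to 531 CPM and KRT18 from 95.8 to 187 CPM. VIM ran from 550 to 854 CPM and CD44 from 674 to 1030 CPM. All of these had their highest value in a DMSO library and their lowest at 150 µg/ml. KRT19 went the other way, from its lowest value of 29.5 CPM in a DMSO library to its highest of 36.2 CPM at 150 µg/ml. The part of these shifts in the results below was not tested. EPCAM lay at 3.69 to 5.47 CPM, and CDH1, which encodes E-cadherin, at 0 to 0.121 CPM. ESR1 stayed at or under 0.917 CPM and PGR at or under 0.058 CPM. The leukocyte markers PTPRC and CD3E were at 0 in each library, and CD14 lay at 0.131 to 0.428 CPM. The 5 fibroblast and endothelial markers summed to 7.31 to 11.5 CPM, nearly all of it from COL1A1, and DCN was at 0. The 3 hepatocyte markers ALB, APOA1 and TTR, for a tissue rich in these reductases, summed to 0.196 to 0.697 CPM. In bulk RNA, fewer cells with a transcript and less of it per cell cannot be told apart.

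The AKR1C genes lie side by side on chromosome 10 within 325.2 kb (GENCODE 29 on GRCh38) and are near copies of each other, which bears on every AKR1C value. Over the whole coding sequence AKR1C1 and AKR1C2 were 98.0% identical, with 19 differing bases among 972 and an identical run of up to 189 bases. AKR1C1 and AKR1C3 were 91.9% identical, with 79 differing bases and an identical run of up to 112. AKR1C1 and AKR1C4 were 88.5% identical. The 90 bases from coding position 73 to 162, counted from the A of the start codon in the GENCODE 29 transcripts, are shown because they tell the copies apart over a short stretch. Capitals mark the bases that differ from AKR1C1.
AKR1C1: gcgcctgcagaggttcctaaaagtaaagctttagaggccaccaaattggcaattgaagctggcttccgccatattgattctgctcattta
AKR1C2: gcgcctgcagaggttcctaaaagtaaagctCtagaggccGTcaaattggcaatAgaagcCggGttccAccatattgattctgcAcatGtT
AKR1C3: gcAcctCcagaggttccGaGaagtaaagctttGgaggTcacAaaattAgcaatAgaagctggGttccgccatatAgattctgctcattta
AKR1C4: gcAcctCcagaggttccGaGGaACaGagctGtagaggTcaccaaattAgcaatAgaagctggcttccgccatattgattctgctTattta
In this stretch AKR1C2 differed from AKR1C1 at 10 bases, AKR1C3 at 11 and AKR1C4 at 13. AKR1C2 therefore has 10 of its 19 differences from AKR1C1 within these 90 bases. How often reads from elsewhere in the coding sequence can separate the pair depends on their length.

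The share of sequence that cannot be assigned was measured by cutting each gene's exons into all words of 100 bases and looking for them in the exons of other genes. Of the exonic words of AKR1C1, 16.7% were also found in another gene, 16.5% in AKR1C2. For AKR1C2 the share was 23.1%, with 22.1% in AKR1C1. It was 1.7% for AKR1C3 and 1.6% for AKR1B10, while AKR1A1 and AKR1B1 had none. Within coding sequence alone, 19.1% of the words of AKR1C1 were found in AKR1C2, against 51.8% of words of 50 bases and 5.0% of words of 150. The sources used here give neither the read length nor the counting options. The deposited row for multiply aligned reads held 0, so how reads from shared stretches were counted is unknown, and the split between AKR1C1 and AKR1C2 is uncertain.

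The sequence before the RefSeq start of each gene repeats the same relations. The 250 bases upstream of the RefSeq start (GRCh38.p14) are shown for the 3 AKR1C members because all 3 were higher at 150 µg/ml, with a CCAAT motif in capitals (here read on the other strand, as ATTGG). The windows are chr10:4963165-4963414 on the plus strand for AKR1C1 and chr10:5003858-5004107 on the minus strand for AKR1C2. For AKR1C3 the window is chr10:5048531-5048780 on the plus strand, the first of its 2 entries. These RefSeq starts differ from the starts of the GENCODE gene spans. The AKR1C1 window runs past the GENCODE start into the gene, and those of AKR1C2 and AKR1C3 lie wholly inside the GENCODE spans. Distances of motifs are counted from the RefSeq start.
AKR1C1: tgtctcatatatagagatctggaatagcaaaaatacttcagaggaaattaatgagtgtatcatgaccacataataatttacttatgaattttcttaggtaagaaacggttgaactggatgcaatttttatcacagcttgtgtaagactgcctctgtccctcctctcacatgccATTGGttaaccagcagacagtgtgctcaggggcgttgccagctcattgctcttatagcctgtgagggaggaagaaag
AKR1C2: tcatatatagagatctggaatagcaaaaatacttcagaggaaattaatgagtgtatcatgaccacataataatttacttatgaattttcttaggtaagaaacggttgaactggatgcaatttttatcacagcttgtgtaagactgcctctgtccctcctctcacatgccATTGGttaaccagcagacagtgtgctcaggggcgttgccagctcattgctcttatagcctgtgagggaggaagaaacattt
AKR1C3: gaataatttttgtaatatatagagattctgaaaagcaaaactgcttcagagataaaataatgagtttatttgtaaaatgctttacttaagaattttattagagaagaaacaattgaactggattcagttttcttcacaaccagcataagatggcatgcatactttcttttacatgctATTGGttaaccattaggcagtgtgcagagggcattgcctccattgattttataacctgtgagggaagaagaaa
Over all columns of an end-to-end alignment, the windows of AKR1C1 and AKR1C2 were 96.5% identical and those of AKR1C1 and AKR1C3 70.7% identical. Unmatched window ends count as differences in these shares. The AKR1C1 and AKR1C2 windows are offset from each other, so the stretch they have in common is closer than 96.5%. The motif began 77, 81 and 73 bases before the start in AKR1C1, AKR1C2 and AKR1C3. It was also found 86 bases before the start in the second AKR1C3 entry and 98 bases before the start of AKR1B1. Of 35116 RefSeq promoter windows of 300 bases, 34.6% held CCAAT on either strand.

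Of the 8 genes, 6 had an entry in the promoter table. The antioxidant response element, searched as TGACNNNGC on both strands, was found in 1 of these 6, CBR1, as GCAAAGTCA 159 bases before the start, and in 13.3% of all promoter windows. The AP-1 motif TGANTCA (7.71% of windows) and the dioxin response element TNGCGTG (5.51% of windows) were not found in the 6. A match is a description of letters in a window. AKR1B10 and CBR3 were not searched, and neither was any sequence outside the windows of 300 bases.

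At 75 µg/ml 4 of the 8 reductases were higher than with DMSO and none was lower, in a comparison where 38.6% of all tested genes were called (19.2% higher and 19.4% lower). These were AKR1B1, AKR1B10, AKR1C1 and AKR1C3. At 150 µg/ml 6 were higher and none lower, where 51.5% of tested genes were called (25.8% higher and 25.7% lower). AKR1A1 and AKR1C2 joined the 4, and CBR1 and CBR3 did not pass. The median log2 fold change of the 8 was 0.94 at 75 µg/ml and 0.93 at 150 µg/ml, beside 0.01 and 0.03 over all tested genes. All 8 passed the filter on low counts. AKR1B10 and AKR1C2 passed it only through treated libraries, since both had fewer than 10 counts in each DMSO library, so these 2 had to differ to be counted as tested. Under total counts, the number of the 8 called higher at 75 µg/ml was 7. The plot of levels by library shows the 8 genes together.

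**Figure D1:**
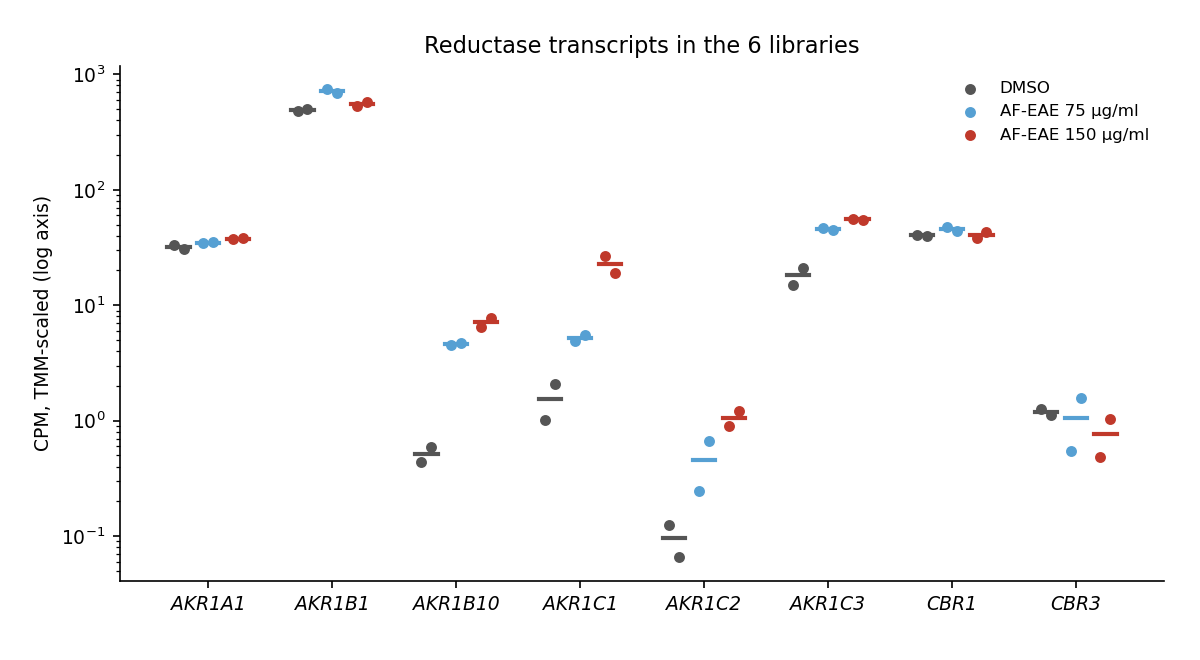
Level of the 8 reductases in each library (points), in CPM scaled by TMM on a log axis, with bars at the mean of the 2 libraries. Grey is DMSO, blue 75 µg/ml and red 150 µg/ml. AKR1C1 spans 1.01 to 26.8 CPM between its lowest DMSO and its highest 150 µg/ml library, while CBR1 stays between 38.1 and 47.7 CPM.

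AKR1C1, which inactivates progesterone, lies at chr10:4963253-4983283 on the plus strand and was higher at both doses. It measured 1.01 and 2.09 CPM in the DMSO libraries (16 and 32 counts), 4.95 and 5.47 CPM at 75 µg/ml and 26.8 and 19.1 CPM at 150 µg/ml. The 3 groups did not overlap, and each dose stood above the one before it. Means were 1.55 ± 0.768, 5.21 ± 0.364 and 22.9 ± 5.43 CPM (SD, n = 2 each). The log2 fold change over DMSO was 1.75 at 75 µg/ml (SE 0.289, 95% interval 1.14 to 2.36, edgeR BH-adjusted p = 1.2e-04). At 150 µg/ml it was 3.89 (SE 0.244, interval 3.37 to 4.4, edgeR BH-adjusted p = 5.6e-10), a 14.8-fold difference. The step from 75 to 150 µg/ml was itself 4.39-fold (log2 2.14, interval 1.72 to 2.55, edgeR BH-adjusted p = 8.9e-07). The DMSO libraries differed 2-fold in AKR1C1 counts, and without DMSO replicate 2 the log2 fold changes over DMSO were 2.36 and 4.49. Without DMSO replicate 1 they were 1.31 and 3.44.

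AKR1C3, which forms testosterone and prostaglandin F, lies at chr10:5035354-5107686 on the plus strand and held the most counts of the AKR1C genes in every library. It stood at 15.0 and 21.2 CPM with DMSO (238 and 324 counts), 46.4 and 45.1 CPM at 75 µg/ml and 56.3 and 54.3 CPM at 150 µg/ml. Neither treated group overlapped DMSO, and both 150 µg/ml libraries were above both at 75 µg/ml. Means were 18.1 ± 4.39, 45.7 ± 0.947 and 55.3 ± 1.45 CPM (SD, n = 2 each). AKR1C3 rose 2.53-fold at 75 µg/ml (log2 1.34, SE 0.116, edgeR BH-adjusted p = 9.6e-08) and 3.06-fold at 150 µg/ml (log2 1.61, SE 0.114, edgeR BH-adjusted p = 2.5e-09). Between the doses the log2 fold change was 0.27 (interval 0.06 to 0.49), which missed the threshold with an edgeR BH-adjusted p of 0.0651. It passed under 8 alternatives, among them no filter on low counts (0.0247) and limma-voom (0.0369).

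AKR1C2, which inactivates dihydrotestosterone, lies between AKR1C1 and AKR1C3 on the minus strand, at chr10:4987400-5018031, and was near the limit of detection. Its counts were 2 and 1 with DMSO, 4 and 11 at 75 µg/ml, then 15 and 21 at 150 µg/ml. Both treated groups lay above DMSO, and the 150 µg/ml libraries above those at 75 µg/ml. Summed per group and scaled to depth, the ratio to DMSO was 4.72 at 75 µg/ml (95% counting interval 1.33 to 25.4) and 11.1 at 150 µg/ml (3.5 to 56.2). The fitted difference did not pass at 75 µg/ml (edgeR BH-adjusted p = 0.0609) and passed at 150 µg/ml (log2 3.37, SE 0.757, edgeR BH-adjusted p = 0.0012). Between the doses it was 1.22 (interval 0.03 to 2.4, edgeR BH-adjusted p = 0.139). These few counts could include reads from AKR1C1, which was more than 10 times as abundant in counts at 150 µg/ml, and this was not tested.

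Summing AKR1C1, AKR1C2, AKR1C3 and AKR1C4 into 1 feature takes away the question of which copy a counted read belongs to. The sum came to 256 and 357 counts with DMSO, 849 and 860 at 75 µg/ml, then 1401 and 1303 at 150 µg/ml. The groups did not overlap. The sum rose at 75 µg/ml by a log2 fold change of 1.39 (edgeR BH-adjusted p = 8.6e-08), at 150 µg/ml by 2.02 (edgeR BH-adjusted p = 1.6e-10) and between the doses by 0.63 (edgeR BH-adjusted p = 2.9e-04).

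The make-up of these AKR1C counts differed mainly at the higher dose. AKR1C1 held 6.25% (95% exact binomial interval 3.61 to 9.95) and 8.96% (6.21 to 12.4) of them with DMSO, and 9.54% (7.65 to 11.7) and 10.6% (8.61 to 12.8) at 75 µg/ml. At 150 µg/ml it held 31.6% (29.2 to 34.1) and 25.2% (22.9 to 27.7). The 150 µg/ml libraries stood apart from the other 4, whose intervals overlapped. The intervals of the 2 libraries at 150 µg/ml did not overlap either. The share of AKR1C3 was 93.0% and 90.8% with DMSO, 89.4% and 87.2% at 75 µg/ml, then 66.5% and 71.8% at 150 µg/ml, while its own level was higher than with DMSO. The ratio of AKR1C1 to AKR1C3 counts was 0.0672 and 0.0988 with DMSO, 0.107 and 0.121 at 75 µg/ml, then 0.475 and 0.352 at 150 µg/ml. The intervals cover counting error only, and the difference between the copies was not tested across samples.

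**Figure D2:**
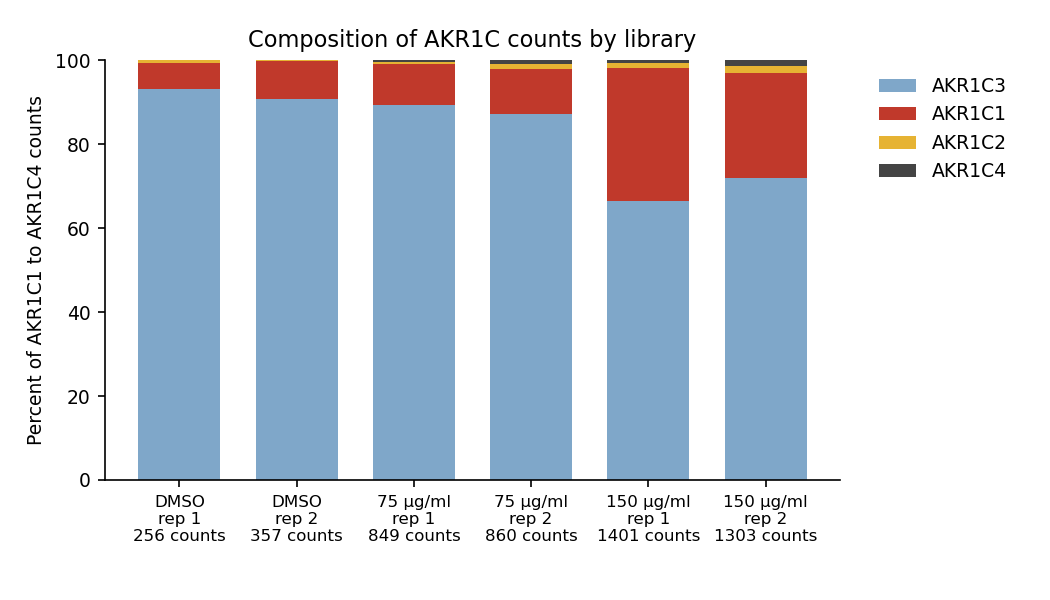
Share of AKR1C1, AKR1C2, AKR1C3 and AKR1C4 in the summed counts of these 4 genes, in percent, for each library, with the summed count under each bar. The AKR1C1 section is 6.25% to 10.6% in the DMSO and 75 µg/ml libraries and 31.6% and 25.2% at 150 µg/ml.

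The rest of the AKR1C locus was read alongside. AKR1C4, a liver enzyme of bile acid synthesis, had 0 counts in both DMSO libraries, 5 and 8 at 75 µg/ml, then 11 and 18 at 150 µg/ml, and so was at least 4.09-fold and at least 8.91-fold higher than with DMSO, where 0 counts allow up to 3 over the group. AKR1C8 had 0 counts with DMSO, 5 and 6 at 75 µg/ml, then 8 and 6 at 150 µg/ml, and was removed by the filter. On the same reckoning it was at least 3.46-fold and at least 4.3-fold higher. These lower limits take the treated counts as exact and leave out their counting error. The pseudogene AKR1C7P had 2 and 6 counts with DMSO, 25 and 26 at 75 µg/ml, then 26 and 44 at 150 µg/ml. It was higher by a log2 fold change of 2.55 (edgeR BH-adjusted p = 1.47e-03) and 2.97 (edgeR BH-adjusted p = 1.7e-04). AKR1C4 and AKR1C7P passed the filter on low counts only through treated libraries and so had to differ to be tested. AKR1C5P had 3 counts in 1 library at 150 µg/ml and 0 in the others. AKR1C4, AKR1C8 and AKR1C7P were thus high in the same libraries as AKR1C1 and AKR1C3, and whether their low counts hold reads of those genes was not tested. AKR1E2, a neighbour of the cluster, showed 3.91 and 2.81 CPM with DMSO, 3.91 and 2.88 at 75 µg/ml, then 3.38 and 4.12 at 150 µg/ml, and did not pass in either comparison (log2 0.01 and 0.16, edgeR BH-adjusted p = 0.978 and 0.653).

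**Figure D3:**
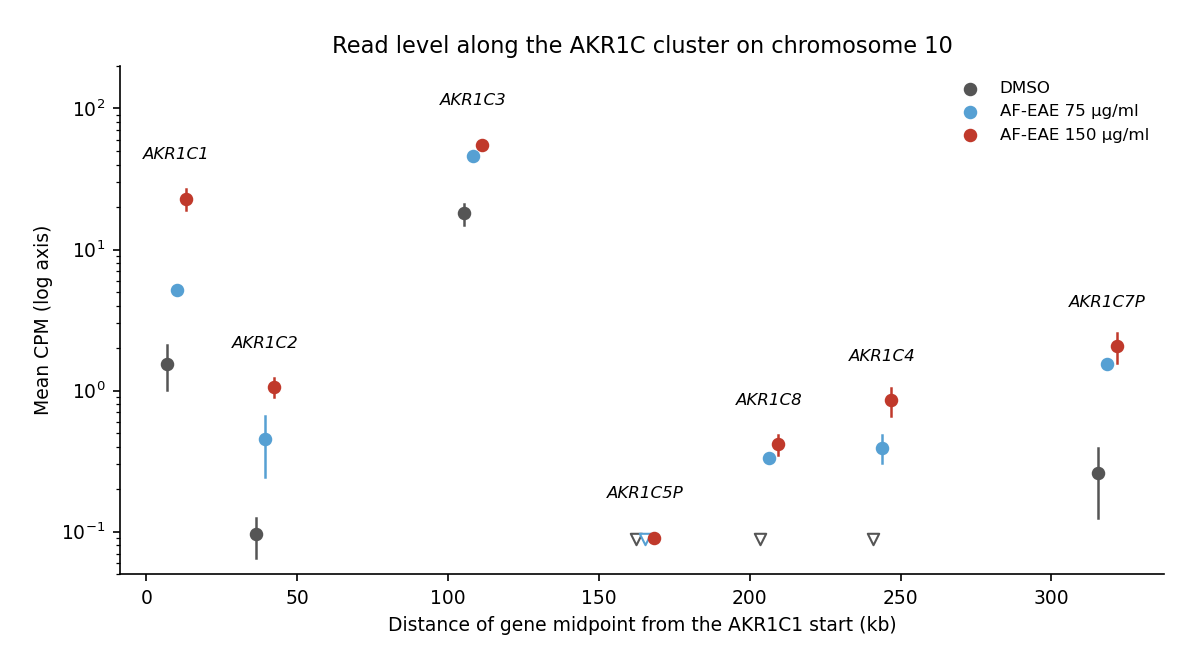
Mean CPM (log axis) of the AKR1C genes against the distance of each gene's midpoint from the AKR1C1 start, in kb, with lines from the lower to the higher of the 2 libraries where both are above 0. Open triangles mark groups with 0 counts, drawn at the level of 3 counts over the DMSO group. At each gene the treated groups (blue 75 µg/ml, red 150 µg/ml) lie above DMSO (grey) except at AKR1C5P, where 1 library alone had counts.

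AKR1B10, a reductase of retinal and lipid aldehydes that is normally expressed in the gut, lies at chr7:134527592-134541408 on the plus strand and was higher at both doses. Its level was 0.441 and 0.589 CPM with DMSO (7 and 9 counts), 4.52 and 4.69 CPM at 75 µg/ml and 6.47 and 7.72 CPM at 150 µg/ml. The groups did not overlap, and most of the difference was present at the lower dose. Means were 0.515 ± 0.105, 4.6 ± 0.115 and 7.09 ± 0.886 CPM (SD, n = 2 each). AKR1B10 rose 8.84-fold at 75 µg/ml (log2 3.14, SE 0.317, interval 2.47 to 3.81, edgeR BH-adjusted p = 5.8e-07). It rose 13.6-fold at 150 µg/ml (log2 3.77, SE 0.303, interval 3.13 to 4.41, edgeR BH-adjusted p = 1.4e-08). From 75 to 150 µg/ml it was 1.54-fold higher (log2 0.62, interval 0.17 to 1.08, edgeR BH-adjusted p = 0.0458), a call that was lost without any 1 of the 4 treated libraries (adjusted p 0.0954 to 0.262) and with DESeq2 (0.154). Its neighbour AKR1B15, a close copy on chromosome 7, had 3 and 1 counts at 150 µg/ml and 0 elsewhere.

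AKR1B1, the aldose reductase that turns glucose into sorbitol, lies at chr7:134442350-134459284 on the minus strand and was the highest of the 8 in every library. It stood at 477 and 500 CPM with DMSO, 740 and 688 CPM at 75 µg/ml and 528 and 570 CPM at 150 µg/ml. The 75 µg/ml libraries were the highest and those at 150 µg/ml lay between them and DMSO, with no overlap of groups. AKR1B1 rose 1.46-fold at 75 µg/ml (log2 0.55, SE 0.051, edgeR BH-adjusted p = 2.2e-07) and 1.12-fold at 150 µg/ml (log2 0.17, SE 0.0511, edgeR BH-adjusted p = 0.0109). From 75 to 150 µg/ml it fell by 0.38 on the log2 scale (SE 0.0507, interval -0.49 to -0.27, edgeR BH-adjusted p = 4.2e-05). The call at 150 µg/ml over DMSO was lost without DMSO replicate 1 (log2 0.13, adjusted p 0.0818) or without 150 µg/ml replicate 2 (log2 0.11, adjusted p 0.162). The coding sequences of AKR1B1 and AKR1B10 were 75.8% identical, and no word of 100 exonic bases of AKR1B1 was found in another gene.

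AKR1A1, the aldehyde reductase that acts on glucuronate among other sugars, lies at chr1:45550543-45570049 on the plus strand and differed little. Its levels were 33.0 and 31.0 CPM with DMSO, 34.3 and 35.1 CPM at 75 µg/ml and 37.6 and 38.0 CPM at 150 µg/ml. The groups did not overlap, but the gaps were small. The log2 fold change was 0.12 at 75 µg/ml (interval -0.06 to 0.3, edgeR BH-adjusted p = 0.309) and 0.24 at 150 µg/ml (interval 0.06 to 0.42, edgeR BH-adjusted p = 0.0252), a 1.18-fold difference. The call at 150 µg/ml was lost with DESeq2 (adjusted p 0.118), without a filter (0.0737), and without DMSO replicate 2 (0.159) or either 150 µg/ml library (0.0727 and 0.09). Between the doses the difference did not pass (log2 0.12, edgeR BH-adjusted p = 0.335).

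The carbonyl reductases did not pass in any of the 3 comparisons. CBR1, which reduces quinones, anthracyclines and prostaglandin E and lies at chr21:36069941-36073166 on the plus strand, measured 40.7 and 39.9 CPM with DMSO, 47.7 and 44.1 CPM at 75 µg/ml and 38.1 and 43.0 CPM at 150 µg/ml. Its 75 µg/ml libraries were above all others, and the 150 µg/ml libraries spanned those of DMSO. The log2 fold change was 0.19 at 75 µg/ml (interval 0.01 to 0.37, edgeR BH-adjusted p = 0.0893). It passed with total counts (0.32, adjusted p 0.0063) and with the stricter filter (0.21, adjusted p 0.0456). At 150 µg/ml it was 0.01 (interval -0.17 to 0.19, edgeR BH-adjusted p = 0.938), and -0.01 with DESeq2 size factors. Its interval at 150 µg/ml corresponds to 0.888 to 1.14 times the DMSO level.

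CBR3, a close relative of CBR1 with weaker activity on most substrates, lies at chr21:36134912-36146566 on the plus strand. It was low throughout, at 1.26 and 1.11 CPM with DMSO, 0.55 and 1.56 CPM at 75 µg/ml and 0.484 and 1.04 CPM at 150 µg/ml. Its counts ran from 8 to 26, and both treated groups spread more widely than DMSO. The log2 fold change was -0.17 at 75 µg/ml (interval -1.24 to 0.91, edgeR BH-adjusted p = 0.832) and -0.62 at 150 µg/ml (interval -1.75 to 0.5, edgeR BH-adjusted p = 0.348). These intervals correspond to 0.423 to 1.88 and 0.298 to 1.41 times the DMSO level, so that neither a fall of 2-fold nor a rise of 1.41-fold could be told from no change at this depth. On chromosome 21 the exons of CBR3 overlap the antisense transcript CBR3-AS1 over 42.2% of their length, and those of CBR1 overlap the opposite-strand AP000688.1 over 18.9%. The sources used here do not say whether counting used the strand, so it is unknown whether reads in the overlaps were left out as ambiguous or assigned by strand. CBR3-AS1 had 9 to 19 counts per library and did not pass (log2 -0.31 and -0.07, edgeR BH-adjusted p = 0.673 and 0.925). CBR1 and CBR3 were 77.0% identical in coding sequence.

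The plot of fold changes sets the 3 comparisons side by side. Between the doses 2 of the 8 were higher at 150 µg/ml (AKR1B10 and AKR1C1), 1 was lower (AKR1B1) and 5 did not pass, where 22% of all tested genes were called (9.51% higher and 12.5% lower). The median log2 fold change of the 8 between the doses was 0.2, beside 0.0 over all tested genes.

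**Figure D4:**
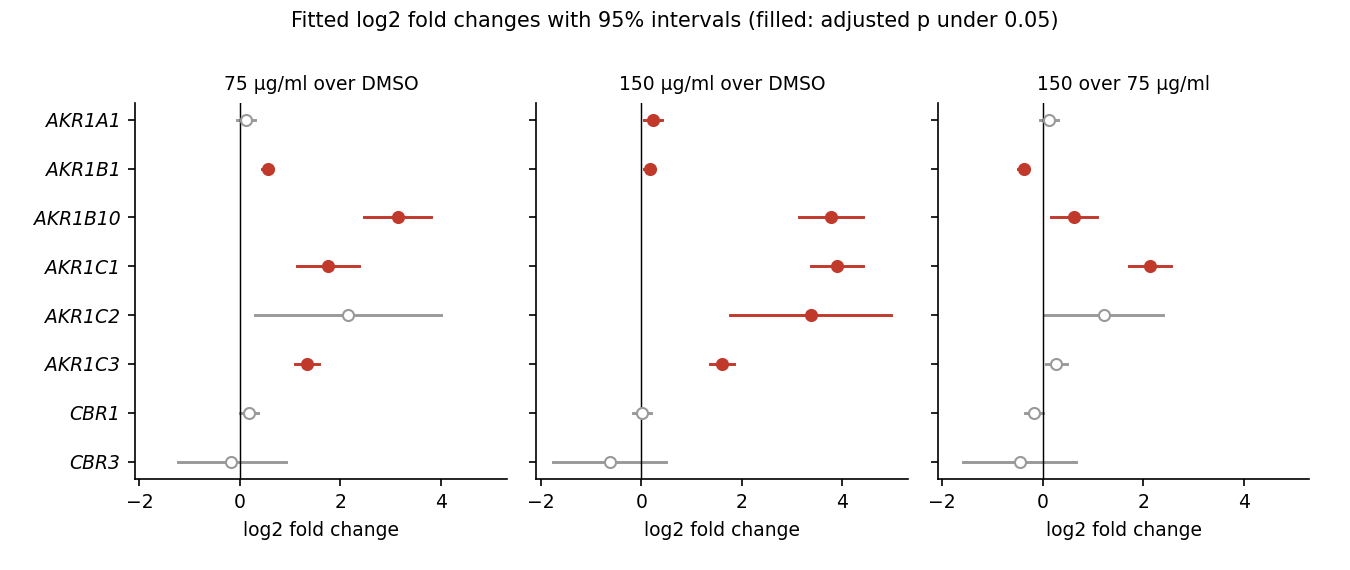
Log2 fold change of the 8 reductases with its 95% interval at 75 µg/ml over DMSO, at 150 µg/ml over DMSO and at 150 over 75 µg/ml. Filled red points have an adjusted p under 0.05 and open grey points do not. AKR1B1 lies at 0.55, 0.17 and -0.38, and AKR1C1 at 1.75, 3.89 and 2.14.

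Levels of different genes can be compared only per length. On the scale of mean CPM per kb of annotated exon, the DMSO order was AKR1B1 (134), CBR1 (16.4), AKR1A1 (10.3), AKR1C3 (4.0), CBR3 (1.02), AKR1B10 (0.295), AKR1C1 (0.177) and AKR1C2 (0.0148). At 150 µg/ml it was AKR1B1 (150), CBR1 (16.5), AKR1C3 (12.2), AKR1A1 (12.1), AKR1B10 (4.07), AKR1C1 (2.62), CBR3 (0.654) and AKR1C2 (0.164). On this scale AKR1C3 and AKR1A1 did not differ at 150 µg/ml beyond the spread of their libraries. Several places depend on the length used, among them that of AKR1C1, whose annotated exons span 8.765 kb. Per kb of coding sequence it stood at 1.6 with DMSO, above CBR3 (1.42) and AKR1B10 (0.542), and at 23.6 at 150 µg/ml, above AKR1B10 (7.46). By coding length AKR1C3 (56.9) stood above CBR1 (48.6) and AKR1A1 (38.6) at 150 µg/ml. By either length AKR1B1 was first in both groups. AKR1C2 was last in both by exon length, and last with DMSO by coding length. At 150 µg/ml CBR3 (0.916) was last by coding length, below AKR1C2 (1.09).

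As a pool, the 8 reductases summed to 569 and 596 CPM with DMSO, 879 and 825 CPM at 75 µg/ml and 694 and 734 CPM at 150 µg/ml. AKR1B1 made up 83.9% and 83.9%, 84.2% and 83.4%, and 76.0% and 77.6% of these sums. The sum thus followed AKR1B1, and was highest at the dose where AKR1C1, AKR1C3 and AKR1B10 were not yet at their highest.

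Other genes of the 2 families, and of connected pathways, were counted from lists that were chosen with earlier results of these data known. Each count is to be read beside all tested genes, of which 19.2% were higher and 19.4% lower at 75 µg/ml. These shares were 25.8% and 25.7% at the higher dose. The medians over all tested genes, as log2 fold changes, were 0.01 and 0.03. Of 7 tested other members of the aldo-keto family 2 were higher and none lower at 75 µg/ml, and 3 higher and none lower at 150 µg/ml. The median log2 fold changes were 0.07 and 0.16. The count of higher genes includes AKR1C4 at both doses, which passed the filter only through treated libraries. KCNAB2, a potassium channel beta subunit with an aldo-keto reductase fold, stood at 33.9 and 36.0 CPM with DMSO, 72.1 and 77.0 CPM at 75 µg/ml and 57.6 and 72.2 CPM at 150 µg/ml. Both treated groups lay above DMSO and overlapped each other. KCNAB2 rose 2.13-fold (log2 1.09, edgeR BH-adjusted p = 9.9e-08) and 1.86-fold (log2 0.89, edgeR BH-adjusted p = 4.7e-07). Under total counts 4 members of this list were higher at 75 µg/ml.

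Of 30 tested short-chain dehydrogenases and related reductases, the relatives of CBR1 and CBR3, 9 were higher and 1 lower at 75 µg/ml, and 7 were higher and 8 lower at 150 µg/ml. Those called made up 10 of 30 and 15 of 30, against 38.6% and 51.5% of all tested genes, and the medians were 0.05 and -0.06. The higher ones include DHRS3 and HSD17B14, named after their values were seen, which had 1 to 3 counts in each DMSO library and passed the filter only through treated libraries. DHRS7, an endoplasmic reticulum reductase, rose by 0.74 and 0.97 (log2, edgeR BH-adjusted p = 2.7e-06 and 4.1e-08). BLVRB, which reduces biliverdin and flavins, rose by 0.74 and 0.9 (edgeR BH-adjusted p = 8.9e-07 and 3.1e-08). QDPR, which regenerates tetrahydrobiopterin, was at -0.36 and -0.74 (log2, edgeR BH-adjusted p = 1.05e-03 and 3.7e-07). Under total counts 2 genes of this list were lower at 150 µg/ml in place of 8.

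Other enzymes that clear aldehydes and quinones rose more often than they fell. Of 25 tested, 16 were higher and 5 lower at 75 µg/ml, and 13 were higher and 7 lower at 150 µg/ml, with medians of 0.47 and 0.48. The higher ones include ALDH1A2, named after its values were seen, which passed the filter only through treated libraries. Over all tested genes 38.6% and 51.5% were called. NQO1, a quinone reductase and a widely used NFE2L2 target, measured 445 and 451 CPM with DMSO, 639 and 603 CPM at 75 µg/ml and 632 and 622 CPM at 150 µg/ml. Both doses were above DMSO and overlapped each other. NQO1 rose by 0.47 and 0.48 (log2, edgeR BH-adjusted p = 3.0e-07 and 8.3e-08). PTGR1, which reduces enals, rose by 0.8 and 1.17 (edgeR BH-adjusted p = 1.1e-07 and 2.7e-10). ALDH2, the mitochondrial aldehyde dehydrogenase, rose by 0.85 and 1.02 (edgeR BH-adjusted p = 2.9e-07 and 1.1e-08). ALDH1B1, another mitochondrial aldehyde dehydrogenase, went the other way, at -0.54 and -1.16 (edgeR BH-adjusted p = 5.1e-04 and 9.2e-08).

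NFE2L2 and its regulators were counted as the known upstream factors. Of 12 tested, 3 were higher and 2 lower at 75 µg/ml, and 7 were higher and 3 lower at 150 µg/ml, so 5 and 10 of 12 were called against 38.6% and 51.5% of all tested genes. The medians were 0.1 and 0.38. Under total counts the counts at 75 µg/ml were 7 higher and 0 lower. NFE2L2 itself measured 141 and 147 CPM with DMSO, 158 and 154 CPM at 75 µg/ml and 189 and 188 CPM at 150 µg/ml. Its difference did not pass at 75 µg/ml (log2 0.12, edgeR BH-adjusted p = 0.088) and passed at 150 µg/ml (log2 0.39, edgeR BH-adjusted p = 6.2e-06). KEAP1 did not pass at either dose (log2 0.04 and 0.08, edgeR BH-adjusted p = 0.65 and 0.248). SQSTM1, a selective autophagy receptor that binds KEAP1, rose by 0.82 and 1.05 (edgeR BH-adjusted p = 3.3e-10 and 3.9e-12). NFE2L1, a related factor that controls proteasome genes, rose by 0.68 and 0.98 (edgeR BH-adjusted p = 3.1e-09 and 8.2e-12), and MAFG, a small MAF partner, by 0.33 and 0.83 (edgeR BH-adjusted p = 1.5e-04 and 1.1e-09). Transcript levels do not measure the activity of NFE2L2, which is controlled largely through its protein.

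Enzymes that supply NADPH went both ways. Of 20 tested, 8 were higher and 7 lower at either dose, or 15 of 20 called against 38.6% and 51.5% of all tested genes, with medians of 0.08 and 0.05. MTHFD2, a mitochondrial folate enzyme, rose by 0.66 and 1.25 (log2, edgeR BH-adjusted p = 2.7e-07 and 2.4e-11), and its relative MTHFD2L by 0.4 and 1.24 (edgeR BH-adjusted p = 0.0143 and 9.5e-08). ME3, a mitochondrial malic enzyme, was at -0.49 and -1.32 (edgeR BH-adjusted p = 4.73e-03 and 2.0e-07). Of 13 tested genes of the polyol, prostaglandin and steroid routes that these reductases feed, 3 were higher and 4 lower at 75 µg/ml and 4 higher and 7 lower at 150 µg/ml, or 7 and 11 of 13 called beside the same shares. ESR1, among the higher ones at both doses, passed the filter only through treated libraries. PTGES, which makes prostaglandin E, stood at 2.02 and 4.39 CPM with DMSO, 15.7 and 14.7 CPM at 75 µg/ml and 15.2 and 17.2 CPM at 150 µg/ml. The treated groups overlapped each other and lay well above DMSO. PTGES rose 4.77-fold and 5.09-fold (log2 2.25 and 2.35, edgeR BH-adjusted p = 3.7e-07 and 8.1e-08). STS, the steroid sulfatase, was at -0.86 and -1.35 (edgeR BH-adjusted p = 1.1e-05 and 3.7e-08), and KHK, the fructokinase, at -0.66 and -1.07 (edgeR BH-adjusted p = 7.06e-03 and 1.1e-04).

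Profiles most like each reductase were found by the Euclidean distance between log2 CPM centred on DMSO, over the 6 libraries and 9505 genes. The closest to AKR1B1 were LAPTM5 (distance 0.09), APOBEC3C and MAPK11, all with the same peak at 75 µg/ml (LAPTM5 0.57 and 0.2, log2 fold change over DMSO at 75 and 150 µg/ml). The closest to AKR1C3 was KLHL24 (distance 0.18, log2 1.24 and 1.64), followed by C1RL and APOL6. For AKR1C1 the nearest, EREG and CHAC1, were at larger distances of 1.04 and 1.05, with log2 fold changes of 2.06 and 3.32 and of 2.4 and 3.66, followed by EGR1 at 1.11. The distance runs over single libraries, so it includes the spread of AKR1C1 within groups (1.01 and 2.09 CPM with DMSO, 26.8 and 19.1 CPM at 150 µg/ml). AKR1A1 was closest to DHDDS (0.05), RBM4 and ZNF316, and CBR1 to PKIG (0.06), SLC35B2 and MTFR2, all with log2 fold changes over DMSO of 0.26 or less. AKR1B10, AKR1C2 and CBR3 had a mean under 5 CPM and were left out of this search.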

How the data were processed

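Each library has a table of raw read counts deposited by the authors, over 60651 gene rows. Its 5 summary rows stayed out of library sizes and tests. The submitters' processing notes name HISAT2 2.2.1, HTSeq 2.0.2 and the build hg38. The sources used here give no counting options, strandedness, read length, poly(A) selection or annotation release. Reads outside genes made up 6.32% to 7.98% of counted reads and ambiguous ones 10.95% to 11.48%. Overlapping genes may lose such reads.

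Tests used edgeR 4.0.16 in R 4.3.3, with TMM, the filterByExpr filter (10 counts at the median depth, 0.611 CPM), and the quasi-likelihood F-test with BH adjustment over 15589 genes, on all 6 libraries with a mean per group (3 residual and 13.8 prior degrees of freedom). The SE comes from the F statistic and the interval from the t distribution. The common dispersion gave a coefficient of variation of 5.08%. Replicates differed by more than sampling noise (chi-square per degree of freedom 2.817 to 3.642). The tests were tested on simulated data.

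Gene spans, exons and coding sequences came from GENCODE 29, and upstream sequences from RefSeq (GRCh38.p14). The members and lists were chosen with earlier results of these data known. All 8 members are named, then per list the 3 genes with the largest absolute log2 fold change at 150 µg/ml among those past the threshold with a mean of 5 CPM or more, and NFE2L2, KEAP1 and NQO1. The aldo-keto list had 1 such gene. Genes of the AKR1C locus, AKR1B15, AKR1E2, CBR3-AS1 and any further gene not taken by this rule were picked once their values were known. Some genes of the lists are not reported here by name. Nearest profiles are the 3 genes of 10 CPM or more with the smallest distance. Alternatives were DESeq2 size factors, total counts, no filter, a stricter filter (5 CPM in 2 libraries), DESeq2 1.42.0, limma-voom (limma 3.58.1), a fit of the 2 groups compared, a replicate block, each library left out, stricter thresholds, and the AKR1C counts summed.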

Additional observations from a re-analysis of the deposited data

How the results depend on the processing

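Of 335 alternative values for the log2 fold changes of the 8 reductases, 299 kept their direction and their side of the threshold, 13 lost a call, 16 gained one and 7 changed sign. The rises of AKR1B10, AKR1C1 and AKR1C3 at both doses over DMSO, of AKR1C2 at 150 µg/ml and of AKR1B1 at 75 µg/ml, and the change of AKR1C1 and AKR1B1 between the doses, were called under each other scaling, filter, tool, fit and left-out library that tested them, and at an adjusted p of 0.01; the stricter filter removed AKR1C2 and CBR3. An absolute log2 fold change of 1 takes both calls of AKR1B1 away, which leaves 3 members higher at 75 µg/ml. Each cause below was not tested unless the alternative's own construction shows it.

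Total counts in place of TMM moved all fold changes up: at 75 µg/ml 7 members were higher, with AKR1A1 at 0.24, AKR1C2 at 2.27 and CBR1 at 0.32 now past the threshold. In the lists at 75 µg/ml, 4 other aldo-keto genes were higher, 3 aldehyde and quinone genes lower, 7 NFE2L2 regulators higher and 0 lower, and 4 NADPH genes lower. At 150 µg/ml 2 short-chain genes were lower. Between the doses 0 other aldo-keto genes were lower and 3 short-chain genes higher. The stricter filter put CBR1 past the threshold at 75 µg/ml (0.21). AKR1A1 at 150 µg/ml was 0.22 and lost its call both without a filter and with DESeq2, and CBR1 at 150 µg/ml was -0.01 with DESeq2 size factors, with DESeq2 and without a filter.

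Between the doses, 1 member was higher with DESeq2, at an adjusted p of 0.01 and at an absolute log2 fold change of 1, where 0 were lower. AKR1B10 kept 0.62 without a filter and with DESeq2 but lost the call. AKR1C3 passed at 0.34 (total counts), 0.27 (no filter, limma-voom), 0.29 (stricter filter) and 0.28 (only the 2 groups compared). With AKR1C1 to AKR1C4 summed, AKR1C2 at 75 µg/ml is replaced by 1.39, and AKR1C2 and AKR1C3 between the doses by 0.63, which are values of the sum.

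With each library left out in turn, AKR1A1 at 150 µg/ml ran from 0.19 to 0.28, AKR1B1 at 150 µg/ml from 0.11 to 0.22, AKR1C2 at 75 µg/ml from 1.28 to 2.68, CBR1 at 150 µg/ml from -0.08 to 0.09, CBR3 at 75 µg/ml from -1.1 to 0.38 and CBR3 at 150 µg/ml from -1.29 (without 150 µg/ml replicate 2) to -0.19 (without replicate 1). Between the doses AKR1B10 ran from 0.49 to 0.75, AKR1C2 from 0.69 (without 75 µg/ml replicate 1) to 2.09 (without replicate 2), AKR1C3 from 0.25 to 0.31 and CBR3 from -1.11 to 0.47, and 1 to 3 members were higher. CBR3 changed sign without 75 µg/ml replicate 1 (over DMSO) or replicate 2 (between the doses).

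Same-numbered libraries did not deviate together (correlations of 0.059, 0.041 and 0.004 between groups), so the numbers were not taken as pairs. With the replicate block, AKR1C3 between the doses was 0.27 with an edgeR BH-adjusted p of 0.0352, 3 members were higher there, 2 other aldo-keto genes were lower and 1 short-chain gene was higher. The block changed no other call of a member. Depth limits AKR1C2, CBR3 and AKR1C4, which had at most 26 counts in a library.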

Other observations

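The genes around the reductases were read within 500 kb, and those named here were chosen after their values were seen. On chromosome 10, 6 genes outside the reductase family were tested, of which 2 were higher and 1 lower at 75 µg/ml and 2 higher and 2 lower at 150 µg/ml. Over all tested genes 38.6% and 51.5% were called. The 2 that were higher at both doses lie on the side of AKR1C7P, and both passed the filter on low counts only through treated libraries, so they had to differ to be tested. TUBAL3, an alpha-tubulin-like gene, had 2 and 2 counts with DMSO, 19 and 28 at 75 µg/ml, then 39 and 45 at 150 µg/ml. Its groups did not overlap, and its log2 fold changes were 3.39 and 4.2 (edgeR BH-adjusted p = 1.9e-04 and 5.0e-06). LINC02561, a long non-coding RNA beside AKR1C7P, had 4 and 0 counts with DMSO, 14 and 14 at 75 µg/ml, then 26 and 24 at 150 µg/ml, with log2 fold changes of 2.66 and 3.45 (edgeR BH-adjusted p = 0.01 and 4.7e-04). NET1, the next gene after TUBAL3, was at 0.01 and 0.03 (edgeR BH-adjusted p = 0.9 and 0.736). On chromosome 7, 3 of 6 other genes were higher and 1 lower at 75 µg/ml, and 1 was higher and 1 lower at 150 µg/ml. On chromosome 21 the counts were 0 higher and 3 lower of 9, then 2 and 3, and around AKR1A1 on chromosome 1 they were 3 and 1 of 17, then 5 and 2. The higher ones include LRGUK on chromosome 7 at both doses (mean 0.72 CPM over all libraries). They also include CLDN14-AS1 on chromosome 21 at 150 µg/ml (0.64 CPM) and a gene without a symbol on chromosome 1 at 75 µg/ml (0.527 CPM). These too passed the filter only through treated libraries and so had to differ to be tested.

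Further genes of the lists, outside the naming rule, were picked after their values were seen. SORD, which turns the sorbitol made by AKR1B1 into fructose, measured 86.7 and 85.4 CPM with DMSO, 62.5 and 58.3 CPM at 75 µg/ml and 43.6 and 47.1 CPM at 150 µg/ml. Its groups did not overlap and fell with dose, by 0.51 and by 0.92 (log2 -0.51 and -0.92, edgeR BH-adjusted p = 1.6e-05 and 7.6e-09), while AKR1B1 was higher than with DMSO at both doses. PTGS2, the inducible cyclooxygenase, had 20 and 17 counts with DMSO, 75 and 58 at 75 µg/ml, then 91 and 85 at 150 µg/ml, and rose by 1.76 and 2.13 (edgeR BH-adjusted p = 1.3e-04 and 6.8e-06). TXNRD1, the cytosolic thioredoxin reductase, measured 753 and 760 CPM with DMSO, 1240 and 1180 CPM at 75 µg/ml and 1570 and 1450 CPM at 150 µg/ml, and rose by 0.67 and 1.0 (edgeR BH-adjusted p = 6.5e-09 and 1.3e-11). ME1, the cytosolic malic enzyme, rose by 0.54 and 0.67 (edgeR BH-adjusted p = 1.6e-05 and 5.6e-07).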
